A study of Mus musculus with 6 samples.

Results

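The 10 genes described here encode proteins that mature and crosslink collagen, and were followed in mouse granulosa cells: Pcolce, Pcolce2, Bmp1, Serpinh1, Plod1, Plod2, Plod3, Lox, Loxl1 and Loxl2. They are 10 of the 27151 genes in the deposited expression table. They were chosen by their function from that table, with earlier results of the same comparison known, so their differences between the groups are given as a description and support nothing. All 10 were found, 9 were tested, and Pcolce2 lay below the filter of a mean of 1 FPKM (fragments per kilobase of exon, scaled to library size). Of these genes, Pcolce fell with GSK4112. Plod2, Lox and Loxl2 stood at about 0.54 of control on the fitted scale; Plod2 and Lox passed the test only in fits that paired same-numbered libraries or left out both libraries of a number (Plod2 also with sample weights), and Loxl2 in 1 of these fits. In the fit of all 6 libraries without pairing, the interval of Lox spans 0 (log2 -2.43 to 0.66). So do those of Plod1, Plod3, Loxl1, Bmp1 and Serpinh1.

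Collagen is made as a procollagen chain in the endoplasmic reticulum. There, lysyl hydroxylases (Plod genes) modify lysines that later form crosslinks, and the chaperone HSP47 (Serpinh1) holds the triple helix while it is carried to the Golgi. Outside the cell, procollagen C-proteinase (Bmp1) removes the C-terminal propeptide, helped by its enhancer proteins (Pcolce and Pcolce2), and lysyl oxidases (Lox genes) oxidise lysines and hydroxylysines so that fibrils become crosslinked. In the ovary, matrix made and remodelled by follicle cells changes as follicles grow, ovulate and form the corpus luteum.

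RNA came from granulosa cells, the somatic cells around the oocyte, of mouse ovary. The cells were released by puncturing follicles, cultured for 24 h, kept without serum for 12 h and then held for 24 h with GSK4112 or without it, with fresh medium every 12 h. GSK4112 is a synthetic ligand that activates REV-ERBα (gene symbol NR1D1), a transcriptional repressor of the circadian clock. Each group, control and GSK4112, has 3 libraries, all of them from cells starved of serum before treatment, and strain, age and genotype were not used here. The series' design text places the treatment in vivo, whereas the protocol describes culture. The labels do not say that libraries came from separate animals or cultures, so a p-value here reflects only how far these libraries spread, which may be technical.

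The libraries held 16559252 to 18158271 fragments, as recovered from the steps of the low values, and 12012 to 12290 genes at 1 FPKM or more. Of 16 granulosa markers, 14 reached 1 FPKM in at least 1 library, with Inha, Hsd3b1 and Cyp11a1 the most abundant, whereas Cyp19a1 and Amh stayed below 1 FPKM in all 6. Across the 12181 genes tested with limma, 1.03% were called at an adjusted p under 0.05, 0.41% higher and 0.624% lower in GSK4112. Several libraries stood apart. Control replicate 2 carried the highest level of 11 of 13 hypoxia-inducible genes, where 10.6% of all tested genes were highest. The replicate 1 library of each group stood apart in matrix and mitotic genes, whose values are given beside the results they touch.

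Promoter sequence is shown for Pcolce, the member that fell, and for Serpinh1, the most abundant member, which was not called, so that the letters searched for can be seen. RefSeq promoter entries (GRCm38.p6) were matched for 5 of the 10 genes: Plod1, Plod3, Pcolce, Serpinh1 and Pcolce2. Both stretches run 5′ to 3′ on the minus strand and lie outside annotated exons. The Pcolce stretch, chr5:137611488-137611654, is the part of the 250 bases before the RefSeq start that no exon covers. It lies inside the longer span that GENCODE gives the gene. The Serpinh1 stretch, chr7:99353240-99353489, is the whole 250 bases before the start. Capitals mark the GC box GGGCGG and the hypoxia response core ACGTG, the latter read on the other strand.
Pcolce: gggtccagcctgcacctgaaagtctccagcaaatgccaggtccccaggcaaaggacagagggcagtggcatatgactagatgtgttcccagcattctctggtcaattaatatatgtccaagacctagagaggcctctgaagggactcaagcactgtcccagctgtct
Serpinh1: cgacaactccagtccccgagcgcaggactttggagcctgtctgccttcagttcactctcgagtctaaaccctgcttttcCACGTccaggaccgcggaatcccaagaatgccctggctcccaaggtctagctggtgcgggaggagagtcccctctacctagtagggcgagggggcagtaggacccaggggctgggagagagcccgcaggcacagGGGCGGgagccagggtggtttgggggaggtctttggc

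The printed Pcolce stretch held 0 CpG dinucleotides in 167 bases and had a GC content of 52.7%, and the Serpinh1 stretch held 11 in 250 bases at 63.6%. Within the whole 250 bases before the start, the numbers of CpG were 16 for Plod1, 17 for Plod3, 5 for Pcolce, 11 for Serpinh1 and 10 for Pcolce2, beside a median of 6 over 32851 promoters. AGGTCA, the core that REV-ERB receptors bind, was searched on both strands and was in none of the 5, while 14.0% of all promoters held it in the same window. That says only that these letters are not in these windows. GGGCGG was found in Plod1 (2 matches), Pcolce, Serpinh1 and Pcolce2 (1 each), and in 32.7% of all promoters. The match of Pcolce lies in its unprinted bases. Of the letters at which hypoxia-inducible factors bind, ACGTG occurred once each in Plod3 and Serpinh1 (16.6% of all promoters), and GCGTG once each in Plod1 and Pcolce and 3 times in Plod3 (28.2%). TATAAA was in Plod1 (12.4%) and CCAAT in Plod3 (33.8%).

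**Figure D1:**
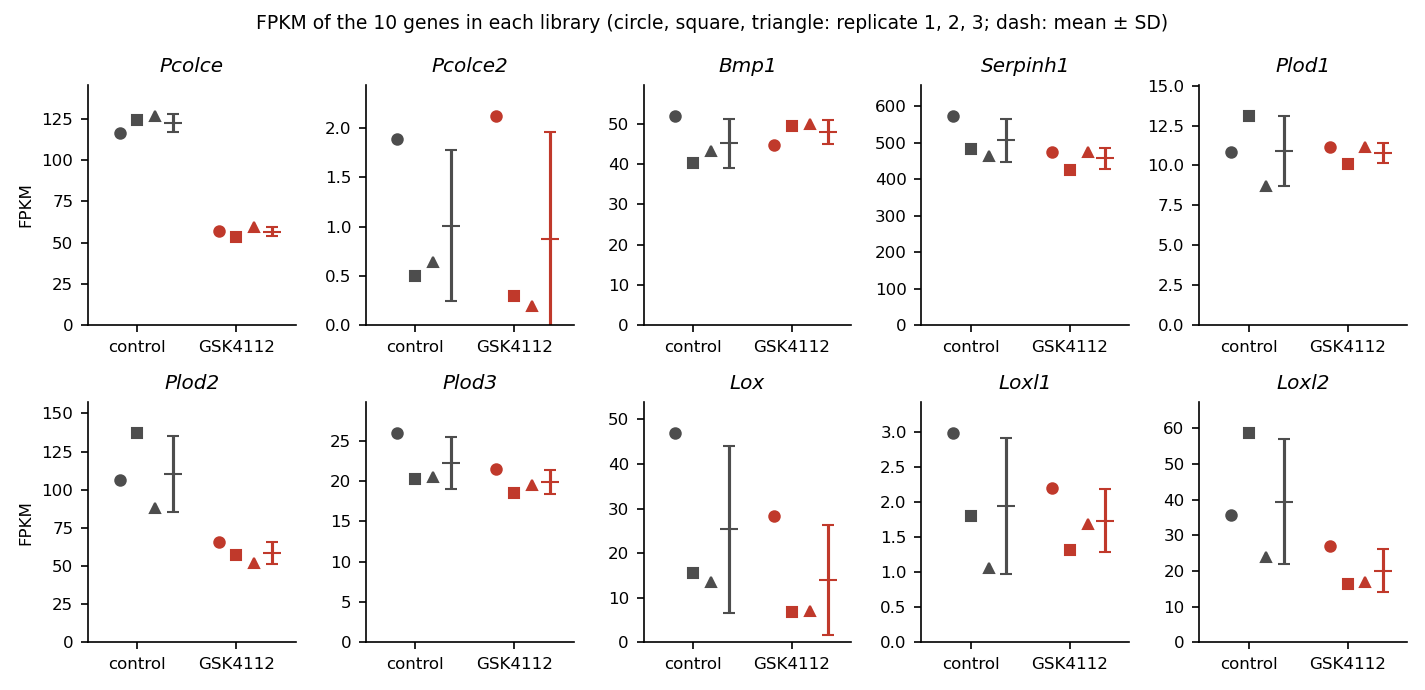
FPKM of each of the 10 genes (linear axes from 0) in the 3 control (grey) and 3 GSK4112 (red) libraries, with circle, square and triangle for replicates 1, 2 and 3 and a dash with bars for the mean ± SD (the lower bar of Pcolce2 in GSK4112 is cut at 0). Pcolce (116 to 127 against 53.6 to 59.5) and Plod2 (87.8 to 137 against 51.7 to 65.9) are the 2 genes tested whose groups do not overlap. Of all genes tested, 23.6% showed this.

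FPKM is per kilobase of annotated exon, so levels can be set side by side between genes. The order is approximate, because which exons these cells use was not examined. In control cells Serpinh1 was the most abundant at 506 ± 58.7 FPKM (SD, n = 3). Pcolce (123 ± 5.52) and Plod2 (110 ± 24.9) came next and had overlapping ranges. Bmp1 (45.1 ± 6.04), Loxl2 (39.4 ± 17.6), Lox (25.3 ± 18.7) and Plod3 (22.3 ± 3.20) followed, each overlapping its neighbour in that order. Plod1 (10.9 ± 2.20) stood apart from the genes on either side, and Loxl1 (1.95 ± 0.974) and Pcolce2 (1.01 ± 0.768) overlapped each other at the bottom. In GSK4112 cells the order of the upper genes differed: Serpinh1 remained first at 457 ± 29.2 FPKM, and Plod2 (58.3 ± 7.11), Pcolce (56.7 ± 2.96) and Bmp1 (48.0 ± 2.90) lay close together, with the range of Bmp1 just below both.

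Pcolce encodes procollagen C-endopeptidase enhancer 1, which binds the procollagen C-propeptide and speeds its removal by Bmp1 (ENSMUSG00000029718, chr5:137605103-137613784, minus strand, GRCm38). It stood at 116, 125 and 127 FPKM in control replicates 1, 2 and 3 and at 57.0, 53.6 and 59.5 in GSK4112 replicates 1, 2 and 3. Every GSK4112 library was below every control library, with little spread within either group. The mean was 123 ± 5.52 FPKM in control and 56.7 ± 2.96 in GSK4112, a log2 difference of -1.10 ± 0.081 (SE; 95% interval -1.29 to -0.90), which is a ratio of 0.467 (0.408 to 0.534) on the FPKM + 1 scale. Limma gave an adjusted p of 0.0088, and 0.0039 with the replicate number as a block. In bulk RNA, fewer cells that make a transcript and less of it per cell cannot be told apart.

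The fall of Pcolce rested on 3395 to 8220 fragments per library, so counting error was small beside the spread between libraries. In same-numbered pairs the ratio of GSK4112 to control was 0.490, 0.431 and 0.469. When single libraries were left out its log2 difference ranged from -1.14 to -1.06. The adjusted p by limma was then above the threshold without control replicate 2 (0.0517), control replicate 3 (0.0532), GSK4112 replicate 2 (0.0812) or GSK4112 replicate 3 (0.107), fits in which 8, 0, 0 and 0 of all genes were called (1716, 1841, 1219 and 1315 at an unadjusted p under 0.05). Without both replicate 1 libraries it was called, at -1.14 ± 0.095 and an adjusted p of 0.0037.

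Pcolce is overlapped by 2 annotated genes: Fbxo24 on the same strand (0.12 to 0.553 FPKM over the 6 libraries) and the antisense transcript Gm36266 (0.283 to 1.14). Both are far below Pcolce itself. Of genes within 30 kb that passed the filter, Mospd3 had 11.5 to 14.0 FPKM and a log2 difference of 0.12 (limma adjusted p = 0.503), and the pseudogenes Gm7285 and Gm16089 were not called either. The 3 tested genes whose log2 levels were most like those of Pcolce over the 6 libraries were the predicted gene Gm42303 (Pearson r 0.995), Scube3 (0.994), which encodes a secreted and membrane-bound protein, and Repin1 (0.994), a zinc finger gene. These correlations describe 6 libraries that share the treatment groups, and have no test.

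Its relative Pcolce2, which encodes a second enhancer of C-proteinase (chr9:95637601-95698096, plus strand), was low. The libraries held 1.89, 0.501 and 0.637 FPKM in control replicates 1, 2 and 3 and 2.12, 0.300 and 0.199 in GSK4112 replicates 1, 2 and 3. Replicate 1 was the highest library of each group, at 3.33 times the mean of the other two in control and 8.50 times in GSK4112, and the groups overlapped. With 16 to 166 fragments per library and a mean below the filter, Pcolce2 was not tested.

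Bmp1, the protease that both enhancers help (chr14:70474558-70520234, minus strand), stood at 51.9, 40.3 and 43.2 FPKM in control and at 44.6, 49.4 and 49.8 in GSK4112. The ranges overlapped and replicate 1 went the other way from replicates 2 and 3. Its log2 difference was 0.09 ± 0.113 (95% interval -0.18 to 0.36; limma adjusted p = 0.72). Without both replicate 1 libraries it was 0.25 ± 0.086 (95% interval 0.03 to 0.46, limma adjusted p = 0.149). With the block as well it was 0.25 ± 0.133 (limma adjusted p = 0.313). Enhancer and protease thus had different ratios in the groups: the FPKM of Pcolce was 2.24, 3.09 and 2.94 times that of Bmp1 in control replicates 1, 2 and 3 and 1.28, 1.085 and 1.19 times in GSK4112. The ratio was lower in every GSK4112 library than in any control library, and was not tested on its own. Its size, unlike its change between groups, depends on the exon lengths taken for both genes.

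Serpinh1 encodes HSP47, the collagen-specific chaperone (chr7:99345376-99353239, minus strand). Control libraries had 573, 481 and 464 FPKM, and GSK4112 libraries 475, 424 and 473. Control replicate 1 was the highest and GSK4112 replicate 2 the lowest, and the remaining 4 overlapped. The log2 difference was -0.14 ± 0.123 (95% interval -0.43 to 0.15), with a limma adjusted p of 0.598. The interval reaches from a ratio of 0.74 to 1.11, so a difference within those bounds could not be told from none.

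Plod2 encodes lysyl hydroxylase 2, which hydroxylates the telopeptide lysines that give hydroxylysine-derived crosslinks (ENSMUSG00000032374, chr9:92542223-92608428, plus strand). It stood at 106, 137 and 87.8 FPKM in control replicates 1, 2 and 3 and at 65.9, 57.4 and 51.7 in GSK4112 replicates 1, 2 and 3. The groups did not overlap, and control replicate 2 was the highest library. The log2 difference was -0.89 ± 0.176 (95% interval -1.31 to -0.47), a ratio of 0.539 (0.403 to 0.722). Limma gave an adjusted p of 0.0792, which misses the threshold, and 0.0173 with the replicate block, which passes it. The ratio within same-numbered pairs was 0.620, 0.419 and 0.590.

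Plod2 is a known target of hypoxia-inducible factors, and control replicate 2 differed from the other libraries in such genes. The summed FPKM of the 13 hypoxia-inducible genes listed was 551, 2444 and 574 in control and 484, 409 and 448 in GSK4112. Pgk1, a glycolytic kinase gene, had 159, 728 and 159 FPKM in control and 98 to 128 in GSK4112, and Aldoa, the aldolase gene, 173, 549 and 191 in control and 171 to 193 in GSK4112. Without control replicate 2, Plod2 had a log2 difference of -0.72 ± 0.144 (limma adjusted p = 0.152). With both replicate 2 libraries left out and the block kept, a fit added after the data were seen, it had -0.72 ± 0.152 and an adjusted p of 0.0166. The part of these genes in the level of Plod2 was not tested. Without both replicate 1 libraries it was -0.996 ± 0.207 (limma adjusted p = 0.0467).

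**Figure D2:**
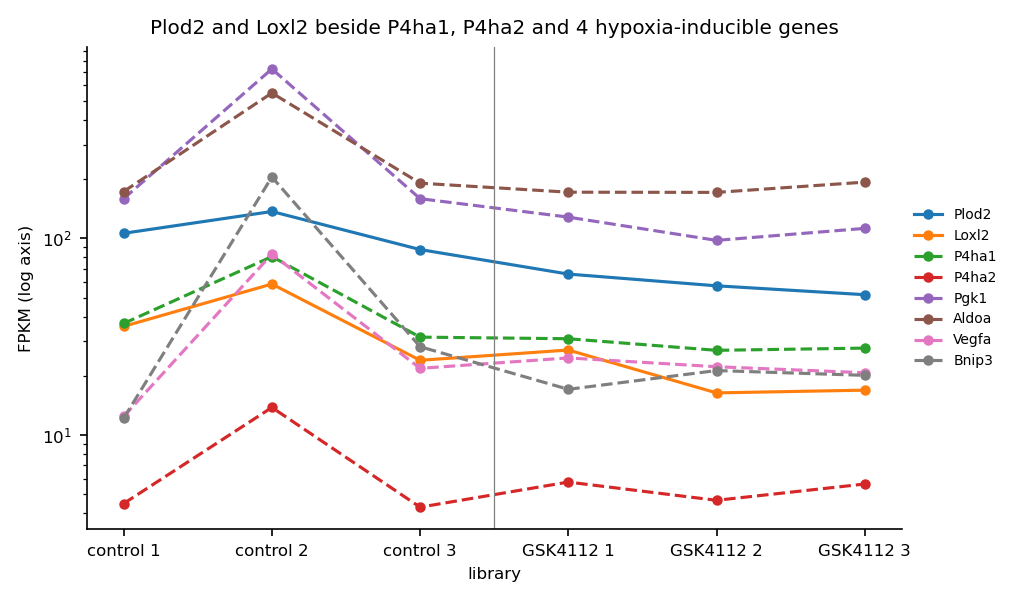
FPKM (log axis) of Plod2 and Loxl2 (solid) and of P4ha1, P4ha2 and the hypoxia-inducible genes Pgk1, Aldoa, Vegfa and Bnip3 (dashed) in each of the 6 libraries. The genes drawn were chosen after their values were seen, and each of the 8 is at its highest in control replicate 2, with Plod2 at 137 and Loxl2 at 58.6 FPKM there, and the GSK4112 levels of Plod2 (51.7 to 65.9) lie below those of all 3 control libraries.

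The other lysyl hydroxylase genes differed less between the groups, a contrast with Plod2 that was not tested. Plod1, which hydroxylates helical lysines (chr4:147909753-147936767, minus strand), had 10.9, 13.1 and 8.71 FPKM in control and 11.2, 10.1 and 11.1 in GSK4112. Its GSK4112 libraries lay within the control range, and the log2 difference was 0.01 ± 0.143 (95% interval -0.34 to 0.35; limma adjusted p = 0.99), a sign that turned under median-of-ratios scaling and quantile normalization. Plod3, which encodes an enzyme that both hydroxylates and glycosylates lysines (chr5:136987019-136996648, plus strand), had 25.9, 20.3 and 20.5 FPKM in control and 21.6, 18.6 and 19.5 in GSK4112. The ranges overlapped although each GSK4112 library was below its same-numbered control, and the log2 difference was -0.15 ± 0.118 (limma adjusted p = 0.566). Znhit1 overlaps Plod3 on the opposite strand at 7.76 to 12.1 FPKM, and since the strand setting of the counting is not given in the sources used here, reads of the overlap cannot be told apart.

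Among the 3 Plod genes, Plod2 made up 74.3 to 80.4% of the summed FPKM in control libraries and 62.8 to 66.8% in GSK4112 libraries. The share of Plod1 was 7.44 to 7.69% in control and 11.3 to 13.5% in GSK4112, and that of Plod3 11.9 to 18.1% and 21.6 to 23.7%. No share overlapped between the groups. These shares restate the lower level of Plod2 beside levels of Plod1 and Plod3 that were not called, and were not tested.

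Lox encodes lysyl oxidase, the copper-dependent enzyme that starts collagen and elastin crosslinks (ENSMUSG00000024529, chr18:52516067-52529867, minus strand). It had 46.9, 15.6 and 13.5 FPKM in control replicates 1, 2 and 3 and 28.3, 6.87 and 6.997 in GSK4112 replicates 1, 2 and 3. Replicate 1 was the highest library in each group, at 3.22 times the mean of the other two in control and 4.08 times in GSK4112, so that the groups overlapped although every pair had the lower value in GSK4112 (0.603, 0.441 and 0.517). The log2 difference was -0.88 ± 0.648 (95% interval -2.43 to 0.66), with a limma adjusted p of 0.531. With the replicate block, which takes out what same-numbered libraries share, the SE was 0.098 and the adjusted p 0.0084. Without both replicate 1 libraries and with no block it was -0.97 ± 0.102 (limma adjusted p = 0.0075). When libraries were left out one at a time it ranged from -1.51 to -0.34 and was not called.

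Markers of other cells moved with replicate 1 too. The smooth muscle and pericyte list (7 of 8 genes in the table, 3 of them below 1 FPKM in all libraries) summed to 244, 47.2 and 49.5 FPKM in control and 130, 67.3 and 80.5 in GSK4112, of which Acta2 made up 234, 44.5 and 46.9 and 125, 63.7 and 76.9. Only Notch3 of that list, below 1 FPKM throughout, was lowest in replicate 1 of each group. It had 0.233, 0.490 and 0.553 FPKM in control and 0.419, 0.631 and 0.679 in GSK4112. The stromal fibroblast list (9 of 9 genes, 5 of them below 1 FPKM in all libraries, Pdgfra, Lum and Tcf21 among these) summed to 42.0, 13.8 and 12.4 and to 26.6, 15.6 and 15.6, and shares Col1a1, Col1a2 and Col3a1 with the fibrillar collagens below. The mitosis list summed to 252, 60.6 and 67.9 and to 182, 37.5 and 33.7, and the leukocyte list, mostly Lyz2, to 39.6, 12.9 and 6.83 and to 37.0, 16.1 and 18.3. The theca list, mostly Aldh1a1, summed to 397 to 592 FPKM in control and 212 to 402 in GSK4112, with its defining genes Cyp17a1 and Insl3 below 1 FPKM in all 6. Ptch1 of the same list went the other way, at 3.55, 5.16 and 5.94 FPKM in control and 3.97, 5.03 and 4.21 in GSK4112. The surface epithelium list reached at most 7.06 FPKM, the oocyte list 3.45 and the endothelium list 1.05. The granulosa list was lowest in replicate 1 of each group, at 4297 FPKM of 4297 to 6853 in control and 3597 of 3597 to 5885 in GSK4112. Most of that sum was Inha and Hsd3b1, the latter at 982, 2928 and 2654 in control and 1181, 2366 and 2669 in GSK4112. The granulosa markers did not move as 1: Foxl2, Nr5a2, Inha, Fst, Fshr and Hsd3b1 were lowest in replicate 1 of each group, and Inhbb, Hsd17b1 and Wt1 highest. The part of these cells or states in the level of Lox was not tested.

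**Figure D3:**
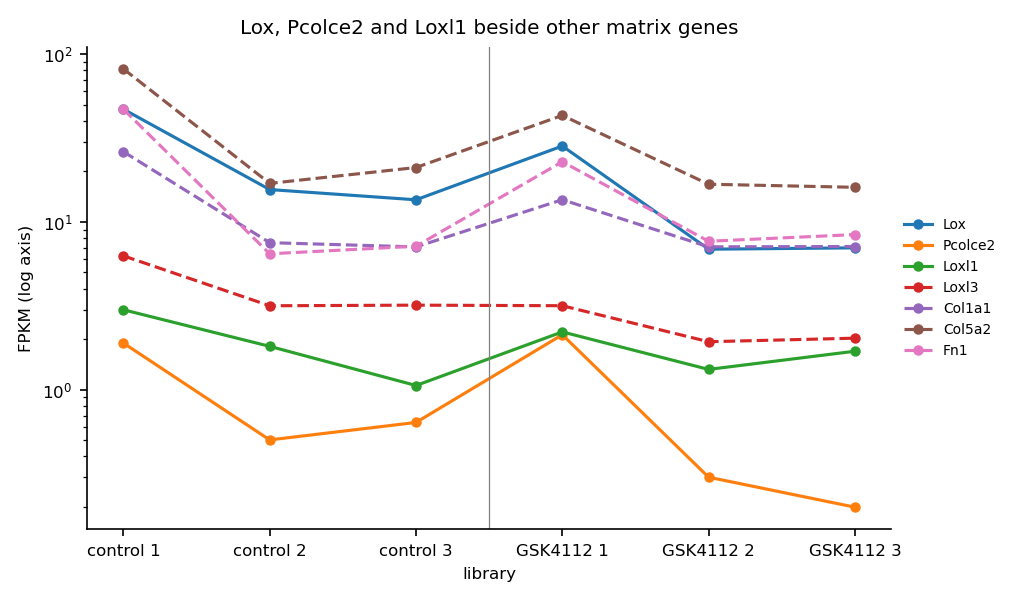
FPKM (log axis) of Lox, Pcolce2 and Loxl1 (solid) and of Loxl3, Col1a1, Col5a2 and Fn1 (dashed) in each of the 6 libraries. The dashed genes were chosen after their values were seen, and replicate 1 is the highest library of its group for each of the 7 genes, with Lox at 46.9 against 13.5 and 15.6 FPKM in control and at 28.3 against 6.87 and 6.997 in GSK4112.

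Loxl2, which encodes an oxidase that also acts on basement membrane collagen (chr14:69609068-69695834, plus strand), stood at 35.7, 58.6 and 24.0 FPKM in control and at 27.1, 16.4 and 16.9 in GSK4112. The highest library was again control replicate 2, and GSK4112 replicate 1 lay above control replicate 3, so the groups overlapped. The log2 difference was -0.88 ± 0.336 (95% interval -1.69 to -0.08), with a limma adjusted p of 0.256, or 0.103 with the replicate block. The pair ratios were 0.758, 0.280 and 0.705. Loxl2 is also known as a hypoxia-inducible gene, and without control replicate 2 its log2 difference was -0.56 ± 0.271 (limma adjusted p = 0.426). Without both replicate 1 libraries and with the block it was -1.13 ± 0.217 (limma adjusted p = 0.0048), the only fit that called Loxl2. That fit called 1105 of the 12095 genes it tested. Without both replicate 2 libraries and with the block the log2 difference of Loxl2 was -0.43 ± 0.136 (0.0968), in a fit that called 668 of 12163 genes.

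Loxl1, whose product acts mainly on elastin (chr9:58287738-58313186, minus strand), was low, at 2.99, 1.81 and 1.06 FPKM in control and 2.21, 1.32 and 1.69 in GSK4112. The groups overlapped and the pairs went both ways. Its log2 difference was -0.07 ± 0.261 (95% interval -0.69 to 0.56; limma adjusted p = 0.923), on 58 to 179 fragments per library.

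With Loxl3 and Loxl4, the other members of the family, Lox and Loxl2 made up most of the lysyl oxidase FPKM. Lox took 19.2 to 49.9% of it in control and 24.4 to 45.6% in GSK4112, and Loxl2 37.9 to 72.4% and 43.6 to 59.8%. These ranges overlapped. Which of the pair led varied by library: Lox in replicate 1 of both groups and Loxl2 in the other 4 libraries.

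Of the 9 genes tested, 1 fell (0.624% of all genes tested were called lower) and 0 rose (0.41%), by limma and by voom alike, and 3 had an unadjusted p under 0.05, beside 17.0% of all genes tested. The groups did not overlap for 2 of the 9, where 23.6% of all genes tested showed this. Of the 9, 5 (Pcolce, Plod2, Plod3, Lox and Loxl2) were lower in GSK4112 in all 3 same-numbered pairs, beside 18.6% of all genes. With the replicate block, 3 fell (Pcolce, Plod2 and Lox) and 0 rose, beside 3.82% of all genes lower, 3.07% higher and 6.89% in either direction. Without both replicate 1 libraries the same 3 were called, beside 6.92% of all genes. The median log2 difference of the 9 was -0.15, and 0.05 over all 12181 genes. Because the genes were chosen with this comparison known, nothing is read from these counts.

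**Figure D4:**
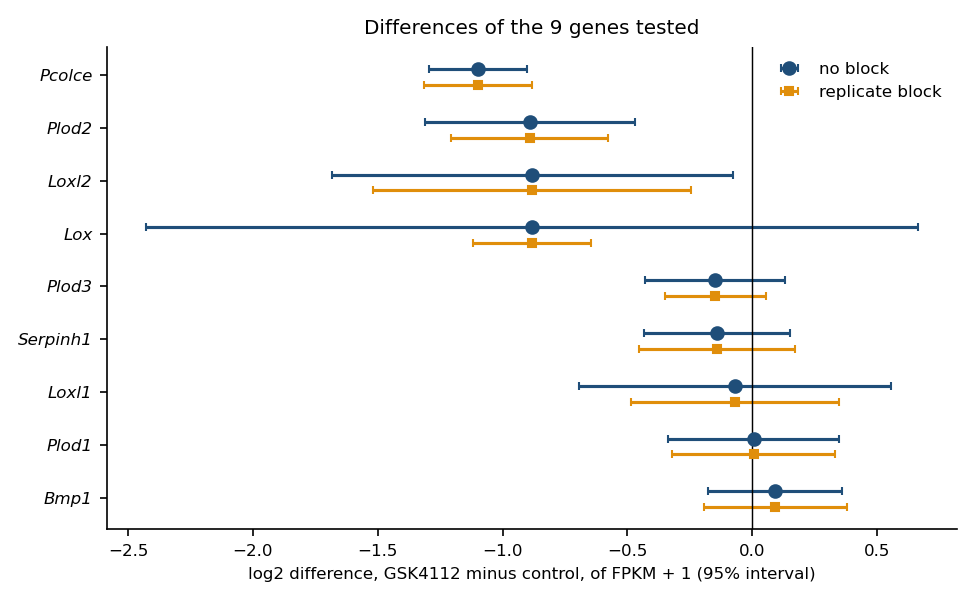
Log2 difference of FPKM + 1, GSK4112 minus control, with its 95% interval for the 9 genes tested, without a block (blue circles) and with the replicate number as a block (orange squares). The interval of Lox runs from -2.43 to 0.66 without the block and from -1.12 to -0.64 with it, whereas that of Pcolce changes little.

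The rest of the pathway was read from 5 lists of other collagen genes, 57 in the table and 43 tested. Of these 2 rose and 0 fell (limma, adjusted p under 0.05), beside 0.41% and 0.624% of all genes tested. With the block 4 rose and 3 fell, beside 3.07% and 3.82% of all genes. The counts at an unadjusted p under 0.05 that follow for each list stand beside 17.0% of all genes tested. Their median log2 difference was -0.04, with 20 higher and 23 lower, beside 0.05 over all genes tested. Both genes that rose belong to procollagen secretion, which takes the stiff trimer out of the endoplasmic reticulum in large COPII carriers. They are coat genes: Sec24d had 16.0, 16.0 and 16.6 FPKM in control and 24.5, 24.5 and 25.5 in GSK4112, and Sec23a 28.4, 26.7 and 28.1 in control and 40.7, 39.2 and 37.4 in GSK4112. The groups of both were apart, with log2 differences of 0.59 ± 0.068 (adjusted p = 0.0271) and 0.48 ± 0.074 (0.046) by limma. The list's 11 tested genes had 9 higher and 2 lower and a median of 0.20. With the block Mia3, the cargo receptor gene TANGO1, passed as well, at 22.2 ± 1.81 against 30.2 ± 1.42 FPKM (adjusted p = 0.0426 with the block and 0.0857 without).

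Prolyl hydroxylation and folding gave 14 tested genes, of which 0 rose and 0 fell by limma (0 by voom; 1 at an unadjusted p under 0.05), with a median of -0.05. P4hb, protein disulfide isomerase and the beta subunit of prolyl 4-hydroxylase, had 296 ± 46.4 FPKM in control and 283 ± 14.0 in GSK4112 (limma adjusted p = 0.862), and P3h4, a partner of the lysyl hydroxylase 1 complex, 67.4 ± 5.06 and 65.6 ± 3.98 (0.86). P4ha1, a catalytic alpha subunit gene, followed the Plod2 and Loxl2 pattern at 36.9, 80.8 and 31.5 FPKM in control and 30.9, 27.0 and 27.7 in GSK4112, and P4ha2 that of the hypoxia genes at 4.48, 13.8 and 4.30 and 5.76, 4.66 and 5.63. Neither was called, and both were named after their values were seen, as were Mia3, Fkbp14, Loxl3, Fbln5 and Adm among the genes given for a call with the block. Fkbp14, a prolyl isomerase gene, passed with the block, at 9.53 ± 0.589 against 13.6 ± 0.594 FPKM (0.0291 with it, 0.0586 without).

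Propeptide cleavage gave 4 tested genes of 10 in the table, with 0 called by limma or voom (2 at an unadjusted p under 0.05) and a median of -0.29. Sfrp2, which encodes a secreted protein reported to enhance C-proteinase as well as to bind Wnt, had 337, 326 and 366 FPKM in control and 273, 195 and 236 in GSK4112. The groups did not overlap, and the log2 difference was -0.56 ± 0.140 (limma adjusted p = 0.126, and 0.0562 with the block). Furin, the proprotein convertase gene whose product activates Bmp1, had 19.3 ± 0.590 and 20.96 ± 0.383 FPKM (0.45).

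Among crosslinking partners, 8 were tested and 0 were called by limma or voom (4 at an unadjusted p under 0.05), with a median of -0.17. Atox1, a copper chaperone gene, had 75.0 ± 16.9 and 72.8 ± 4.86 FPKM, and Efemp2 (fibulin-4), which brings lysyl oxidase to elastin, 34.5 ± 5.34 and 27.2 ± 3.02 (limma adjusted p = 0.293). Loxl3 and Fbln5 (fibulin-5) fell with the block alone. Loxl3 had 6.27, 3.16 and 3.19 FPKM in control and 3.16, 1.93 and 2.02 in GSK4112 (0.0374 with the block, 0.308 without), and Fbln5 3.64, 1.46 and 2.02 and 1.40, 0.498 and 0.483 (0.0184 and 0.209). Both had their highest library in replicate 1 of each group, as Lox did.

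Fibrillar collagen genes, the substrates, gave 6 tested genes of 11, with 0 called by limma or voom (1 at an unadjusted p under 0.05) and a median of -0.32. Col11a1, a minor fibrillar chain that sets fibril diameter, had 53.6, 28.6 and 38.5 FPKM in control and 17.1, 9.07 and 8.18 in GSK4112. Every GSK4112 library was below every control library. Its log2 difference was -1.75 ± 0.316 (limma adjusted p = 0.0636), and it fell with the block (0.0025). Col5a2 had 81.6, 17.0 and 21.1 FPKM in control and 43.1, 16.8 and 16.1 in GSK4112 (0.772), high in replicate 1 of both groups.

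**Figure D5:**
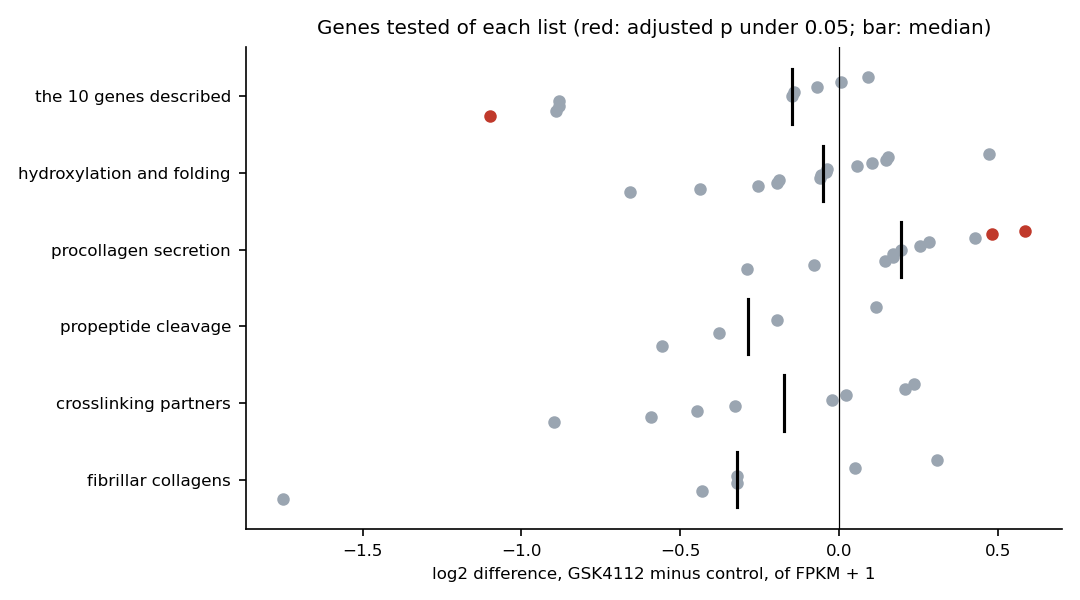
Log2 difference of FPKM + 1, GSK4112 minus control, of each tested gene of the 10 described and of the 5 collagen lists, with red for adjusted p under 0.05 by limma and a bar at each median. Of the other lists only procollagen secretion holds called genes, Sec23a and Sec24d, both above 0, and Col11a1 lies farthest to the left at -1.75.

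Another 3 lists, of hypoxia-inducible genes, of TGF-beta and YAP targets and of mitosis genes, were set beside them. All 11 tested hypoxia-inducible genes had a negative log2 difference, with a median of -1.03. Limma and voom called 0 of them (1 at an unadjusted p under 0.05), and with the block Adm fell. All but Adm were highest in control replicate 2. Within the replicate 1 pair Vegfa, Pdk1, Bnip3, Egln3 and Ndrg1 were higher in GSK4112, as was Aldoa in the replicate 3 pair. The remaining same-numbered pairs were lower. Egln3, whose value is the median given, passed the filter through control replicate 2 alone (8.34 FPKM, beside 0.259 to 0.722 elsewhere). Of the 2 genes below the filter, Car9 had the higher mean in GSK4112 (0.483 FPKM in control, 0.676 in GSK4112). Ankrd37 had the lower (0.717 and 0.308). The shared sign and the median thus rest in part on the filter and on that library. Vegfa had 12.4, 83.2 and 21.8 FPKM in control and 24.7, 22.3 and 20.7 in GSK4112. Pgk1 had a log2 difference of -1.23 ± 0.575 and Aldoa -0.56 ± 0.421, both with control replicate 2 far above the other 5 libraries. Of 7 tested targets of TGF-beta and YAP, 0 were called by limma or voom (0 at an unadjusted p under 0.05) and the median was -0.18. Ccn1, a matricellular YAP target, had 346 ± 134 and 200 ± 138 FPKM and fell with the block (adjusted p = 0.029), and Ankrd1 had 107 ± 96.7 and 123 ± 135 (0.999 without it). All 14 mitosis genes were lower, with a median of -0.56, 0 called by limma or voom (0 at an unadjusted p under 0.05) and 7 called lower by limma with the block, beside 3.82% of all genes tested. Cdc20 had 23.4 ± 21.2 and 14.7 ± 13.2 FPKM and fell with the block (0.0147), and Ccnb2 16.7 ± 14.4 and 11.2 ± 10.2 (0.063). Whether any of these lists has a part in the levels of Lox or Loxl2 was not tested.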

How the data were processed

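RNA-seq of 3 control and 3 GSK4112 libraries was analysed from the table the authors deposited, which holds FPKM for 27151 Ensembl gene IDs, the unit being named in the deposited file. Genome build GRCm38 is per the submitters' processing notes; the sources used here do not name the aligner, the counting program, the annotation or the strand setting. Symbols and coordinates came from GENCODE M21 (27098 IDs matched, 53 did not). FPKM times exon length moved in steps that gave library totals of 16559252 to 18158271 fragments, with 92.8 to 93.1% of values below 500 fragments whole within 0.01, so that 1 fragment in 1 kb of exon is 0.0551 to 0.0604 FPKM.

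The 12181 genes whose mean reached 1 FPKM entered 1 fit of log2(FPKM + 1) by limma (version 3.58.1, R 4.3.3), with a variance trend, 2-sided tests and a call at a Benjamini-Hochberg adjusted p under 0.05. That scale understates changes of low genes, and errors of log2 differences are SE. The fit was tested on simulated data drawn without shifts of single libraries, so that test does not cover libraries that stand apart, as several did here. An exact permutation of 6 values cannot give a p below 0.1. Tables and figures used Python 3.11.15.

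Deviations of same-numbered libraries from their group means correlated at 0.665, 0.326 and 0.213, each over the limit of 0.1, so the replicate number was also fitted as a block. No label states that pairing, which rests on the values alone, and control replicate 3 correlated better with GSK4112 replicate 2 (0.53), and control replicate 2 with GSK4112 replicate 3 (0.357), than with their own numbers.

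The members, the lists and the rule for named genes were chosen with earlier results of these data known. The rule took the 10 members, up to 3 called rises and 3 falls of each pathway list or its 2 most abundant genes where fewer than 2 were called, and the 3 genes most like the member with the largest difference. The settings varied were the pseudocount (0.1 and 0.5) and the filter (none, or a mean of 5), and the other fits used TPM, median-of-ratios and quantile scaling, no trend, a robust trend, sample weights, the block, each library left out and both replicate 1 libraries left out. Voom on the recovered fragments, and leaving out both replicate 2 libraries with the block, were added after the data were seen.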

Additional observations from a re-analysis of the deposited data

How the results depend on the processing

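Pcolce, Plod2, Plod3, Lox, Loxl2 and Serpinh1 were lower in GSK4112 in each of the 21 alternative fits. Pcolce was called in 17 of these, Plod2 in 5, Lox in 4 and Loxl2 in 1. Limma called 126 genes in all, 1 member and 2 other collagen genes. With the replicate block these counts were 839, 3 and 7; with sample weights 830, 2 and 6; without both replicate 1 libraries 837, 3 and 8; without these and with the block 1105, 4 and 8; and without both replicate 2 libraries and with the block 668, 3 and 5. Among the members and the list genes named, the block changed no call other than those given beside them in the results. With no filter 26 genes were called, and 1 other collagen gene was called with no filter, TPM scaling, median-of-ratios scaling or no trend. When single libraries were left out, 0 to 149 genes, 0 to 1 member and 0 to 2 other collagen genes were called. Voom called 171 genes. The cause of these shifts was not tested.

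Signs turned for genes near 0. Plod1 was at -0.053 with median-of-ratios scaling, -0.030 with quantile normalization, -0.012 without both replicate 1 libraries (with or without the block) and -0.13 to 0.14 with single libraries left out. Loxl1 was at 0.027 with sample weights, 0.056 without both replicate 1 libraries (with or without the block), 0.037 without both replicate 2 libraries and with the block, and -0.30 to 0.18 with single libraries left out. Bmp1 was at -0.0054 without both replicate 2 libraries and with the block. Scaling moved the median log2 difference of all genes by 0.0053 (TPM), -0.055 (median-of-ratios) and -0.031 (quantile). At this depth Pcolce2, with 16 to 166 fragments per library, and Loxl1, with 58 to 179, rest on few fragments.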
